A study of Mus musculus with 2 samples.

Results

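Transcription factors that pattern the ventral telencephalon and its descendants were examined in laser-captured pieces of the embryonic mouse brain. They are Gsx2, Nkx2-1, Dlx1, Dlx2, Dlx5, Dlx6, Lhx6, Isl1 and Sp8, chosen by symbol, and they make up 9 of the 24411 genes listed for each library. The data are 2 bulk RNA-seq libraries, 1 from the subventricular zone (SVZ) and 1 from the cortex of fresh-frozen brain at embryonic day 16.5, cut by laser capture microdissection (LCM) from stained cryosections, with no treatment, strain or genotype named for either. LCM means that a chosen area is cut out of a section with a laser under the microscope. The SVZ lies just outside the lining of the ventricles and holds dividing progenitors. The number of embryos behind each library is not given in the sources used here.

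The telencephalon is divided into a dorsal pallium, which forms the cortex, and a ventral subpallium, which forms the ganglionic eminences. Progenitors of the eminences carry Gsx2 (lateral and caudal eminence) or Nkx2-1 (medial eminence), and then switch on Dlx genes, which drive GABAergic neuron fate. Their daughters either stay ventrally, as striatal neurons that carry Isl1, or migrate tangentially into the cortex as interneurons, among which Lhx6 marks those from the medial eminence. The question asked of these genes was whether the SVZ piece held ganglionic tissue or migrating interneurons.

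From the SVZ piece, 51435667 reads fell in genes against 22050693 from the cortical piece, so that the former was sequenced 2.33 times deeper. Values are CPM, the reads of a gene per 1000000 gene-assigned reads, so that a single read equals 0.0194 (SVZ) or 0.0453 (cortex) CPM. Where no read was counted, up to 3 may have been missed, which is 0.0583 CPM for the SVZ and 0.136 CPM for the cortex. Each difference is given as log2 of the SVZ level over the cortical level, with an exact (Clopper-Pearson) 95% interval. With 1 library per area there is no replicate and no test, and the intervals cover counting error only, since PCR copies were not told apart by molecular identifiers. In bulk libraries, fewer cells of a type and less RNA per cell cannot be told apart.

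The members did not move as a block. The progenitor factor Gsx2 and the zinc finger factor Sp8 were over 10-fold higher in the SVZ piece, Dlx1, Dlx5 and Dlx6 were higher there by smaller folds, Dlx2 was close to equal, and Lhx6 was higher in the cortical piece. Nkx2-1 was not read in either library. Isl1 was read in the SVZ piece alone, at a low level. Of the 8 members with more than 3 reads in at least 1 library, CPM was higher in the SVZ piece for 7, beside 55.0% of the 15847 genes with that many reads. The interval lay above equal CPM for 6, beside 45.4% of genes, below it for 1 (Lhx6), beside 36.1%, and across it for 1 (Dlx2).

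Gsx2, a homeodomain factor that specifies lateral eminence progenitors (positions 75075601 to 75077893 of chromosome 5 on GRCm38), was counted 596 times in the SVZ piece and 14 times in the cortical piece, or 11.6 and 0.635 CPM. It was 18.3-fold higher in the SVZ piece, a log2 ratio of 4.19 with an interval of 3.43 to 5.07. This was the highest ratio among the members with reads in both libraries. The 14 cortex reads were unevenly spread over the strand columns, with 13 in the first and 1 in the second.

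Nkx2-1, the homeodomain factor required for medial eminence identity (chromosome 12, 56531958 to 56536908), had 0 reads in both libraries. The stranded columns also held 0 reads for it, and none of its 2842 annotated exon bases is shared with another gene, so that no read was set aside for overlap with an annotated gene. At this depth, 0 reads allow a level of up to 0.0583 CPM in the SVZ piece and of up to 0.136 CPM in the cortical piece, and no ratio was computed. Of all genes listed, 35.1% were at or under 3 reads in both libraries.

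The Dlx genes code for homeodomain factors of the eminence SVZ and of the neurons that leave it, and they lie in pairs. Dlx1 (chromosome 2, 71528113 to 71533981) had 1399 reads in the SVZ piece and 267 in the cortical piece, or 27.2 and 12.1 CPM, a log2 ratio of 1.17 (0.98 to 1.36). Its partner Dlx2 (chromosome 2, 71543408 to 71546754) had 318 and 133 reads, or 6.18 and 6.03 CPM, a log2 ratio of 0.04 (-0.26 to 0.34). A difference in Dlx2 was thus not detectable at this depth, whereas the Dlx1 interval lay wholly above that of Dlx2.

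Dlx5 (chromosome 6, 6877805 to 6882085) had 1056 reads in the SVZ piece and 257 in the cortical piece, or 20.5 and 11.7 CPM, a log2 ratio of 0.82 (0.62 to 1.02). Its partner Dlx6 (chromosome 6, 6863334 to 6868568) had 74 and 16 reads, or 1.44 and 0.726 CPM, a log2 ratio of 0.99 (0.19 to 1.87). The ratios of Dlx1, Dlx5 and Dlx6 had overlapping intervals and could not be ordered among themselves. The sign of the Dlx2 ratio turned under TMM, DESeq2 and upper-quartile scaling, and the other Dlx ratios stayed above 0.

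Lhx6, a LIM homeodomain factor that acts after Nkx2-1 in medial eminence neurons and stays on in the interneurons that reach the cortex (chromosome 2, 36081953 to 36105408), had 1400 reads in the SVZ piece and 736 in the cortical piece. These were 27.2 and 33.4 CPM, a log2 ratio of -0.29 (-0.42 to -0.16), or 1.23-fold higher in the cortical piece. It was the only member higher in the cortical piece under totals, and its sign held under each alternative run.

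Isl1, a LIM homeodomain factor of striatal projection neurons and of their precursors (chromosome 13, 116298281 to 116309689), had 23 reads in the SVZ piece and 0 in the cortical piece. Its SVZ level was 0.447 CPM. Set against the floor of 3 reads, Isl1 in the SVZ piece was 3.29-fold higher, or 1.72 on the log2 scale. The exact interval, which takes the 0 reads as counted, had a lower limit of 1.30 on that scale. Of the lateral eminence factors, Isl1 was thus at a low level while Gsx2 had 596 reads in the same library.

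Sp8, a zinc finger factor of the dorsal lateral and caudal eminences that is also known from pallial patterning (chromosome 12, 118846329 to 118852576), had 3362 reads in the SVZ piece and 133 in the cortical piece, or 65.4 and 6.03 CPM. It was 10.8-fold higher in the SVZ piece, a log2 ratio of 3.44 (3.19 to 3.70). It had the most reads of all members in the SVZ piece. In the cortical piece it had the same number of reads as Dlx2.

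**Figure D1:**
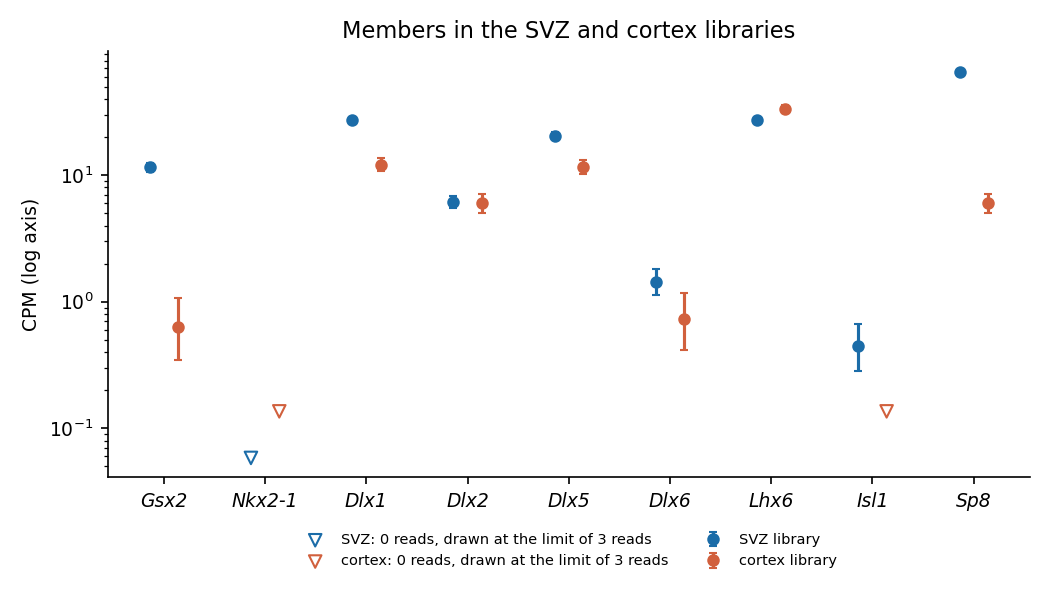
CPM of the 9 members (log axis) in the SVZ piece (blue) and the cortical piece (orange), with exact Poisson 95% intervals as bars. Open triangles stand for 0 reads and are drawn at the limit of 3 reads. Sp8 and Gsx2 are farthest apart between the libraries, Dlx2 and Lhx6 lie close together, and Nkx2-1 is at 0 reads in both.

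Of the members, 7 of 9 had a mean level of 1 CPM or more over both libraries, while Nkx2-1 and Isl1 did not. Among these 7, Gsx2 and Sp8 were at least 4-fold higher in the SVZ piece, 2 members, beside 10.2% of the 12738 genes with that mean. None was 4-fold higher in the cortical piece, beside 7.01% of genes. At 2-fold, 3 members (Gsx2, Sp8 and Dlx1) were higher in the SVZ piece, beside 20.0% of genes. The interval lay above equal CPM for 5 of the 7, beside 48.2% of genes, and 7 members are too few to set that share apart. The median log2 ratio of the 7 was 0.99, and that of all 12738 genes was 0.11.

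Levels were next compared between members per length, as CPM per kilobase of merged annotated exons. The unstranded column was used, which leaves out 1821 SVZ and 419 cortex reads of Dlx1 that also fell in the antisense RNA Dlx1as. The Dlx1 levels are thus lower limits, and its place in either order is not settled. In the SVZ piece the order was Sp8 (14.3 CPM per kilobase), Dlx5 (9.07), Gsx2 (6.96), Lhx6 (5.66), Dlx1 (5.04), Dlx2 (2.17), Dlx6 (0.606) and Isl1 (0.113). Sp8 stood above 76.9% of the 15268 genes with a read and a length in that library, and Isl1 above 11.4%. Neighbours in this order had separate counting intervals, but the length used decided some of them. With the longest transcript as the length, Dlx5 reached 14.4 and could not be told from Sp8 at 14.6, and Gsx2 at 6.96 could be told neither from Lhx6 at 7.82 nor from Dlx1 at 6.62.

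In the cortical piece the order began with Lhx6 (6.95 CPM per kilobase), followed by Dlx5 (5.15), Dlx1 (2.24), Dlx2 (2.11), Sp8 (1.32), Gsx2 (0.381) and Dlx6 (0.306). In the unstranded column, Dlx1 did not differ from Dlx2 beyond counting error, nor Gsx2 from Dlx6. That column leaves out 419 reads shared by Dlx1 and Dlx1as, so the place of Dlx1 against Dlx2 is not settled. Sp8 was thus the leading member per length in the SVZ piece and the fifth in the cortical piece, while Lhx6 moved from the fourth to the first place. For scale, the pallial progenitor factor Neurog2 stood at 69.0 and 1.20 CPM per kilobase in the SVZ and the cortical piece.

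The promoters of 3 members with different outcomes are shown for reference: Gsx2, higher in the SVZ piece, Nkx2-1, at 0 reads in both, and Lhx6, higher in the cortical piece. They are RefSeq sequences on GRCm38.p6, from 250 bases before to 50 bases after the start, written along the strand of the gene. Capitals mark the GC box, the core motif of Sp family factors, searched as GGGCGG on both strands, so that a box on the other strand reads CCGCCC, as in the Nkx2-1 window. The Gsx2 window is chr5:75075351-75075650 on the plus strand, the Nkx2-1 window chr12:56536859-56537158 on the minus strand, and the Lhx6 window, the outermost of its 3 annotated ones, chr2:36105359-36105658 on the minus strand.
Gsx2: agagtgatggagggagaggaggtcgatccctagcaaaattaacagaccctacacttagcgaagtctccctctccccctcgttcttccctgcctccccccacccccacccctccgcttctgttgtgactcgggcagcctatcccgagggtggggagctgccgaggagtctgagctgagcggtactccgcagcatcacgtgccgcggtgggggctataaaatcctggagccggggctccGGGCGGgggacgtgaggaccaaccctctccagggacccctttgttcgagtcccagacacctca
Nkx2-1: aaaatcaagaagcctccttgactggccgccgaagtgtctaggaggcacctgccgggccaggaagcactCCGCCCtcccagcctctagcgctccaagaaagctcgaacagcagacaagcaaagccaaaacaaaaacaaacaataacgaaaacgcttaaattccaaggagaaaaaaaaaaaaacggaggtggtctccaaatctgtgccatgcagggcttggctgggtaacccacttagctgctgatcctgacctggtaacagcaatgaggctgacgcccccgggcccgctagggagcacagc
Lhx6: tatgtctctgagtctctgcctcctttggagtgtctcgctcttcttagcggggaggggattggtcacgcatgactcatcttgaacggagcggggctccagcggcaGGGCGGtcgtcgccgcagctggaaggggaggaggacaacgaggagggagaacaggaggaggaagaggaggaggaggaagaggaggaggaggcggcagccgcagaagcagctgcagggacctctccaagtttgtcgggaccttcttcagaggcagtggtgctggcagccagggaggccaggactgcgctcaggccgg
A window was found for 7 of the 9 members, with 11 windows in all, since Lhx6 and Sp8 have several. The GC box was in 7 of these 11 windows, or 63.6%, beside 35.7% of 32851 promoters of that length. It was present in each of the 3 windows shown, and absent from the Isl1 window, the innermost Lhx6 window and some Sp8 windows. The windows shown were picked for display, so they cannot tell whether the box goes with reads. The homeodomain core TAATTA, which reads the same on both strands, was in 1 of the 11 windows, a Sp8 window, beside 5.29% of promoters. A match is a description of letters, and these data hold no measurement of binding.

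Antisense RNAs complicated the count of Dlx1 and Dlx6. Dlx1as, transcribed across Dlx1 on the opposite strand, shares 335 annotated exon bases with it, and the unstranded count leaves out reads that fall in both genes. The sum of the stranded columns gave Dlx1 3220 reads in the SVZ piece and 686 in the cortical piece, a gain of 1821 and 419 reads. Dlx1as gained the same numbers, 1821 and 419. The first strand column held 49.6% of the stranded reads in the SVZ piece and 49.7% in the cortical piece, as libraries that keep no strand give, so that the RNA these reads came from cannot be told. The Dlx1 log2 ratio from the strand columns was 1.01.

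Dlx6 gained 16 reads in the SVZ piece and 6 in the cortical piece, the same numbers as Dlx6os2, and its log2 ratio became 0.81. The antisense RNA Dlx6os1, which begins between Dlx5 and Dlx6 and runs across the latter, gained none. Dlx6os1 had 2321 reads in the SVZ piece and 393 in the cortical piece, a log2 ratio of 1.34, and Dlx1as had 1612 and 365, a log2 ratio of 0.92 (0.76 to 1.09). Both antisense RNAs were thus higher in the SVZ piece, as were Dlx1, Dlx5 and Dlx6.

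**Figure D2:**
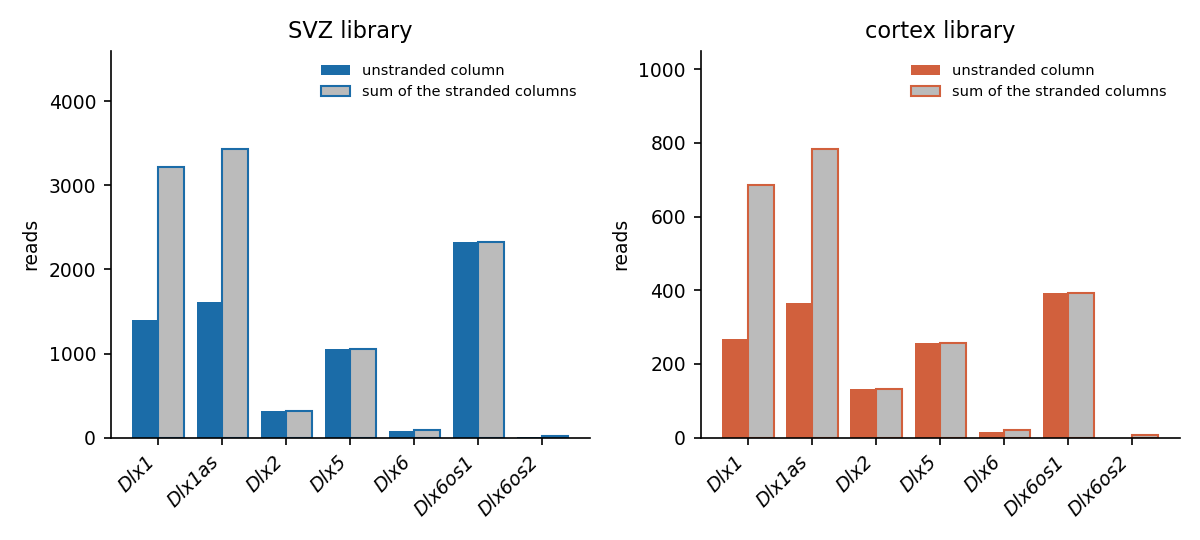
Reads of the Dlx genes and their antisense RNAs in the unstranded column (filled bars) and in the sum of the stranded columns (grey bars), for the SVZ piece (left) and the cortical piece (right). Only Dlx1, Dlx1as, Dlx6 and Dlx6os2 gain reads, and Dlx1 and Dlx1as gain equal numbers.

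The genes of the ganglionic eminences were then read as lists. Of 8 progenitor genes of the eminences, 3 had a mean level of 1 CPM or more. Of these, 2 were at least 4-fold higher in the SVZ piece, beside 10.2% of genes. The 3 genes are too few to set that share apart. Gadd45g, a growth arrest gene that is not particular to the eminences, had 17531 and 321 reads, with a log2 ratio of 4.55 (4.39 to 4.71). Gsx1, the paralogue of Gsx2, had 0 reads in both libraries, and Nkx6-2, a ventral progenitor factor, had 0 reads in both unstranded columns.

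For the medial eminence and the interneurons it sends out, the list fell into a silent and a detected set. Lhx8, Gbx1, Gbx2 and Shh, which belong to the medial eminence itself or to its ventral neurons, had 0 reads in both libraries, as did Nkx2-1. The interneuron genes Maf (log2 ratio 0.64, interval 0.48 to 0.81) and Nxph1 (0.19, interval -0.02 to 0.41) were read in both pieces, with 1359 and 373 reads for Maf and 672 and 252 for Nxph1. The neuropeptide gene Sst (-1.48, interval -1.62 to -1.33) was higher in the cortical piece, as was Lhx6. Sst had 712 reads in the SVZ piece and 849 in the cortical piece. Sox6 (2.80) and Satb1 (-0.74) pointed in opposite directions, and both are also known from pallial cells. Of 6 genes with a mean level of 1 CPM or more, 3 were higher in the SVZ piece, beside 54.9% of genes. The other 3 were higher in the cortical piece, beside 45.1%. The median log2 ratio was -0.27, against 0.11 for all genes.

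The list of the caudal and dorsal lateral eminences leaned to the SVZ piece, as Sp8 did. Of its 10 genes with a mean level of 1 CPM or more, 9 were higher in the SVZ piece, beside 54.9% of genes, and 4 were at least 4-fold higher, beside 10.2%, with a median log2 ratio of 1.84 against 0.11 for all genes. The 4 became 3, without Meis2, under TMM, DESeq2 and upper-quartile scaling. Tshz1 (log2 ratio 3.29), Pbx3 (3.24) and the serotonin receptor gene Htr3a (3.16) were the farthest apart, and Meis2 had a log2 ratio of 2.06. Htr3a, a marker of caudal eminence interneurons, had 522 reads in the SVZ piece and 25 in the cortical piece. Nr2f2 (0.83), Nr2f1 (1.57) and Etv1 (1.92) were higher by less than 4-fold, and Nr2f1 is also a factor of pallial progenitors.

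The striatal list leaned to the cortical piece, with 7 of 11 genes higher there, beside 45.1% of genes, 4 of them (Foxp1, Bcl11b, Drd1 and Ppp1r1b) at least 4-fold, beside 7.01%, and a median log2 ratio of -1.22. The other 4 were higher in the SVZ piece, of which 1, the retinoid receptor gene Rxrg, was at least 4-fold higher (5.51-fold, 90 and 7 reads), and its count became 0 with the SVZ piece thinned, with a pseudocount or where the whole interval had to pass 4-fold. Adora2a (3.25-fold, 106 and 14 reads) and Ebf1 (1.60-fold, 187 and 50 reads) were also higher there, and Ikzf1, under the minimum level, had 43 and 0 reads. Foxp1 (-2.45), Foxp2 (-1.22) and Bcl11b (-2.26), which are shared with deep-layer cortical neurons, made up much of its reads. Drd2 had 0 reads in both libraries, and Zfp503, abundant in the striatum, had 1 read in the SVZ piece and 0 in the cortical piece. Drd1 was listed at 0 reads in the SVZ piece and 380 in the cortical piece. Ppp1r1b, which codes for a dopamine-regulated phosphatase inhibitor, had 118 and 2215 reads. Whether the Drd1 and Ppp1r1b reads came from striatal or from cortical neurons was not tested.

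**Figure D3:**
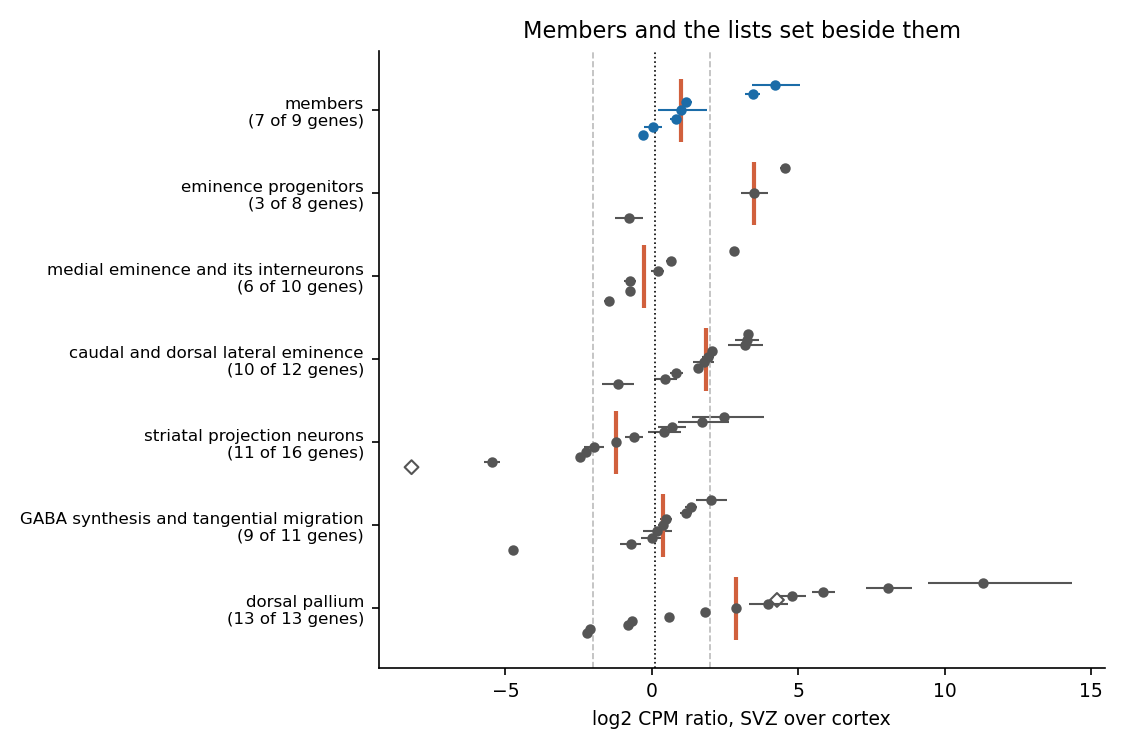
Log2 CPM ratio (SVZ over cortex) of each gene with a mean level of 1 CPM or more, by list, with 95% counting intervals as lines, list medians as orange bars and open diamonds for ratios set against the floor of 3 reads. The dotted line is the median of all genes (0.11) and the dashed lines mark 4-fold. The members spread from Lhx6, left of equal CPM, to Gsx2 and Sp8, past 4-fold.

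Finally, the members were set against other genes of the same library, which needs no scaling between libraries. The members together had 51.0 reads per 1000 reads of the dorsal pallium list in the SVZ piece (exact interval 49.9 to 52.2) and 18.1 in the cortical piece (17.2 to 19.0), which makes the SVZ value 2.82 times the other. Sp8 held 3362 of the members' 8228 SVZ reads and 133 of their 1556 cortex reads. Without Sp8 the values were 30.2 and 16.5, a factor of 1.83. Neurod6, of postmitotic pallial neurons, gave 81883 and 61678 of the list's 161286 and 86132 reads, and without it the members stood at 103.6 and 63.6, a factor of 1.63. Pallial progenitor genes were themselves strongly skewed, with 11659 and 2 reads for Eomes and 7906 and 59 for Neurog2, while Tbr1 of postmitotic pallial neurons had 2433 and 4827. Pallial reads outnumbered those of the members in both libraries.

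A comparison with the genes for the GABA synthesis enzymes, Gad1 and Gad2, was chosen after these values were seen. Gad1 (853 and 263 reads) and Gad2 (1443 and 477) were 1.39-fold and 1.30-fold higher in the SVZ piece, with log2 ratios of 0.48 (0.27 to 0.68) and 0.38 (0.22 to 0.53). Lhx6 had 610 reads per 1000 Gad1 and Gad2 reads in the SVZ piece (interval 570.1 to 652) and 995 in the cortical piece (897 to 1103). Sp8 had 1464 (1388 to 1545) and 179.7 (148 to 216), and Gsx2 had 260 (237 to 284) and 18.9 (10.3 to 31.9). The 4 Dlx members together had 1240 (1173 to 1311) and 909 (818 to 1011), a factor of 1.36. Relative to the same enzymes, Lhx6 was therefore lower in the SVZ piece, the Dlx genes in sum were moderately higher, and Sp8 and Gsx2 were higher by factors of 8.15 and 13.7.

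**Figure D4:**
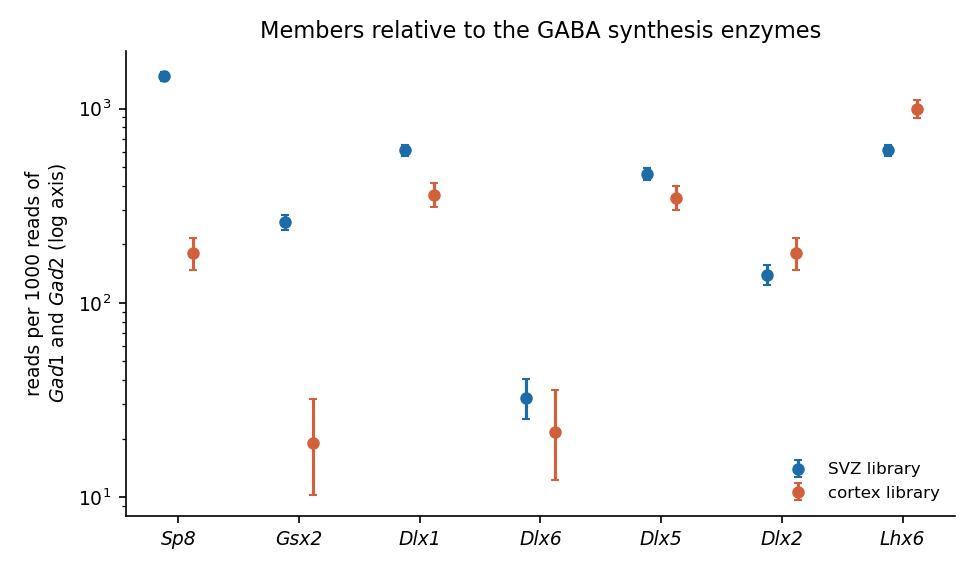
Reads of 7 members per 1000 reads of Gad1 and Gad2 (log axis) in the SVZ piece (blue) and the cortical piece (orange), with exact 95% intervals. Sp8 and Gsx2 are far higher in the SVZ piece, the intervals of Dlx2 and of Dlx6 overlap between the pieces, and Lhx6 is higher in the cortical piece.

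Other genes of GABAergic neurons and of tangential migration followed no single direction. Of 9 with a mean level of 1 CPM or more, 6 were higher in the SVZ piece, beside 54.9% of genes. The other 3 were higher in the cortical piece, beside 45.1%, and 9 genes are too few to set these shares apart. The median log2 ratio was 0.38, against 0.11 for all genes. Npy, which codes for a neuropeptide of interneurons, had 733 and 8355 reads, with a log2 ratio of -4.73. Npy thus lay on the side of Lhx6 and Sst.

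Among genes of other tissue that a piece can hold, those of the choroid plexus and of microglia summed higher in the SVZ piece. The 5 choroid plexus genes summed to 245 CPM in the SVZ piece and 0.907 CPM in the cortical piece, nearly all of it Ttr (12363 and 16 reads), and Folr1 had 141 and 0. The 8 microglial genes summed to 66.4 and 6.94 CPM, with each gene higher in the SVZ piece. Blood vessel genes (139 and 105 CPM over 7 genes) and meningeal genes (4.26 and 6.30 CPM over 5 genes) were less unequal. Of 8 genes of the diencephalon and hypothalamus, where Nkx2-1 and Isl1 are also expressed, 5 had 0 reads in both libraries, among them Otp, Rax, Six6 and Foxb1, and the list summed to 92.5 and 7.39 CPM, nearly all of it Tcf7l2. The part of these tissues in the levels of Gsx2, Sp8 and the Dlx genes was not tested. Whatever else differed between these cuts cannot be told apart from the area.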

How the data were processed

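LCM and bulk RNA-seq were performed by the authors on brain areas at embryonic day 16.5, with 1 library per area. Per the study's methods, adapters were removed with cutadapt 4.1, and read 1 was mapped to mm10 (Illumina iGenomes) with STAR 2.7.9a, which also counted reads per gene. What the authors deposited are raw counts, in 1 unstranded column and 2 stranded columns. STAR leaves out reads that map to several places or overlap several genes. The authors' merged table, with their CPM and fold change columns, was not used.

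Here, CPM was computed on the sum of gene rows of the unstranded column, without the 4 summary lines. Log2 ratios were taken without a pseudocount. Against 0 reads, a floor of 3 was used, and pairs of counts that both lay at or under this floor got none. Lists were counted over genes with a mean level of 1 CPM or more, since ratios of lower genes rest on few reads. Positions, exon lengths and overlaps came from GENCODE M21 (GRCm38), matched by symbol. The annotation used for counting is not given in the sources used here. Named genes were the members, list genes with a mean level of 10 CPM or more or a 4-fold difference at a mean level of 1 CPM or more, and list genes at or under 3 reads in both libraries, up to 30. Genes of the GABA, dorsal pallium and non-neural lists, Adora2a, Ebf1, Ikzf1, Dlx1as, Dlx6os1 and Dlx6os2 were named beyond that limit, after their values were seen. Some list genes are not reported here. The members and lists were chosen with earlier results of these data known. Scaling factors came from edgeR 4.0.16 and DESeq2 1.42.0 in R 4.3.3, intervals from scipy 1.17.1 in Python 3.11.15 (pandas 2.3.3, numpy 2.4.6), plots from matplotlib 3.10.9, and the procedure was tested on simulated data.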

Additional observations from a re-analysis of the deposited data

Results flagged for a closer look

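The ventral progenitor factor Nkx6-2 had 0 reads in the unstranded column of both libraries but 35 reads in the stranded columns of the SVZ piece and 12 in those of the cortical piece. The stranded columns lie outside the main counts, and these values exceed the 3 reads that a count of 0 allows. Nkx6-2 shares 246 annotated exon bases with Inpp5a on the opposite strand, and the RNA these reads came from cannot be told apart.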

How the results depend on the processing

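No paired analysis was possible because a single library stands for each area, and no replicate could be left out. The number of members at least 4-fold higher in the SVZ piece was 2 under each scaling, the stranded sum, thinning and a pseudocount of 1 CPM, and 1 at a mean level of 10 CPM or more, which left Gsx2 out. Dlx2 turned to a log2 ratio of -0.06 under TMM scaling, -0.06 under DESeq2 size factors and -0.06 under upper-quartile scaling (-0.0573, -0.0576 and -0.0632), and was 0 with the SVZ piece thinned to the cortex total. The number of members higher in the SVZ piece was then 6 in place of 7. The members per 1000 reads of the dorsal pallium list became 62.2 in the SVZ piece and 23.0 in the cortical piece in the stranded sum, and 54.1 in the SVZ piece without Pax6. In choices made after seeing the data, they became 30.2 and 16.5 without Sp8, and 103.6 and 63.6 without Neurod6. The median log2 ratio of the members ranged from 0.77 with a pseudocount to 1.08 with no minimum. Of 56 member ratios recomputed, 54 stayed within their counting interval, and Gsx2 (2.94) and Isl1 (0.53) left it with the pseudocount. Of 430 counts and medians of the other lists, 49 moved by more than 1.5 times (counts) or past the median limits of their genes' intervals (medians). No median turned in sign, and a count has no sign to turn. The striatal median ran from -0.62 with none to -2.35 at 10 CPM. Intervals were also widened by the spread between strand columns, a choice made after seeing the data. For 7 of 7 members this did not change whether the interval lay above, below or across equal CPM. The widened intervals cover neither animals nor dissections.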

Other observations

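Oligodendrocyte precursors, which arise in part from the ventral telencephalon, had low levels in both pieces. Pdgfra, the receptor that marks these cells, had 302 reads in the SVZ piece and 142 in the cortical piece, a log2 ratio of -0.13 (-0.43 to 0.16). Cspg4, a proteoglycan gene of these cells and of pericytes, was higher in the SVZ piece, with 143 and 17 reads at a log2 ratio of 1.85 (1.12 to 2.67). Gpr17 had 8 and 0 reads in the unstranded column, but 9 in the stranded columns of the cortical piece. It shares 188 annotated exon bases with Lims2 on the opposite strand. Sox10 had 23 and 21 reads, and Olig2 had 62 and 15, a log2 ratio of 0.83 (-0.01 to 1.75). Olig1 had 93 and 69 reads, with a log2 ratio of -0.79 (-1.26 to -0.32). Of the septal genes, Zic4 had 44 and 0 reads and Zic1 had 113 and 14.

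The cortex reads of Dlx2 were split into 44 and 89 over the strand columns, with 33.1% in the first. Among the 1025 genes with 100 to 200 reads in that library and no read lost to overlap, the middle 95% of genes had between 40.8% and 58.7% there. Over genes with 20 to 2000 reads, the variance between the strand columns was 1.14 times the binomial value in the SVZ piece and 1.08 times in the cortical piece.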
